A study of Mus musculus with 20 samples.

Results

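Matrix proteases and their inhibitors were followed in the inguinal subcutaneous fat of female mice across the estrous cycle. They were taken as the protein-coding genes whose symbols mark them as matrix metalloproteinases (MMP), tissue inhibitors of metalloproteinases (TIMP), ADAM proteins or ADAMTS and ADAMTS-like proteins. The table of 35841 genes held 78 of them, namely 21 MMP, 4 TIMP, 19 ADAMTS, 5 ADAMTS-like and 29 ADAM genes. Of these, 35 reached 1 FPKM (fragments per kilobase of transcript, scaled to the mapped fragments of the library) in at least 5 of the 20 libraries and were analysed, namely 10 MMP, 4 TIMP, 8 ADAMTS, 3 ADAMTS-like and 10 ADAM genes. The other 43 were below that level. Among the 35, the 3 ADAMTS-like genes and Adam23 are classed here as non-proteases, and they were kept in all counts. Adamtsl1 was just inside it, with 5 libraries at 1 FPKM or more and values of 0.218 to 1.59 FPKM. Adamts6 was just outside, with 3 such libraries and at most 1.29 FPKM.

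The 20 mice were C57BL/6 females aged 8 weeks, each at 1 of 4 stages read from vaginal smears: 5 each for proestrus, estrus, metestrus and diestrus. Each mouse gave 1 library of polyadenylated RNA from a fat pad that holds adipocytes, stroma, vessels and, in this depot, mammary epithelium and a lymph node. A different animal was taken at each stage, so no mouse was followed through the cycle. A change is given as a difference of log2(FPKM + 1), a scale on which changes of weakly expressed genes appear smaller than they are. A gene was called where the adjusted p of limma (Benjamini-Hochberg over the 13987 genes tested) was under 0.05.

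Extracellular matrix surrounds each adipocyte, and its turnover accompanies the growth and shrinkage of fat pads. MMPs cleave collagens, gelatin and other matrix proteins, ADAMTS proteases cleave proteoglycans and process procollagens, and ADAMs are mostly membrane-bound and release the outer parts of growth factors and receptors. TIMPs bind the active site of MMPs, and of only some of the other enzymes, and block it. All of these proteases are made as inactive precursors, so that a transcript level is not a measure of activity.

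Libraries differed in tissue content, which bears on all results below. Sums of FPKM were 373659 to 452647 per library, and 24.1% to 33.4% of them came from mitochondrial genes. Adipocyte markers were high in each library, with a mean of log2(FPKM + 1) over 12 markers of 7.85 to 8.75. The mean of 12 lymphocyte markers was between 0.30 and 4.95, and was 1.17 or lower in proestrus-2, 3 estrus, 2 metestrus and 1 diestrus libraries. Skeletal muscle markers reached 9.64 in metestrus-3. By the study's supplementary material, the first RNA of proestrus-2 was of too low quality, and RNA was then taken from a further stored piece of that mouse's fat. Proestrus-2 had a lymphocyte score of 0.30, against 3.47 to 4.48 in the other 4 proestrus libraries, and a progenitor and fibroblast score of 4.98, against 3.43 to 4.38. The main comparisons with proestrus are therefore given with and without it. In whole tissue, fewer cells of a type and less RNA per cell cannot be told apart.

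A pair of inhibitors had the highest mean levels. Timp2 averaged 65.3 FPKM over the 20 libraries and Timp3 60.8 FPKM, ahead of Mmp2, the gelatinase that also takes part in the activation step on cell surfaces, at 36.4 FPKM, and Mmp3, a stromelysin with broad substrates, at 34.1 FPKM. Adam10, the sheddase of Notch and many other membrane proteins, followed at 29.5 FPKM, Adam9 at 19.3 FPKM, Mmp19 at 16.8 FPKM and Mmp14, the membrane-type MMP that activates the Mmp2 precursor, at 14.5 FPKM. Adamts5, an aggrecan- and versican-degrading protease, led the ADAMTS genes at 12.3 FPKM. All 78 genes together took 0.049% to 0.157% of the FPKM of a library.

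**Figure D1:**
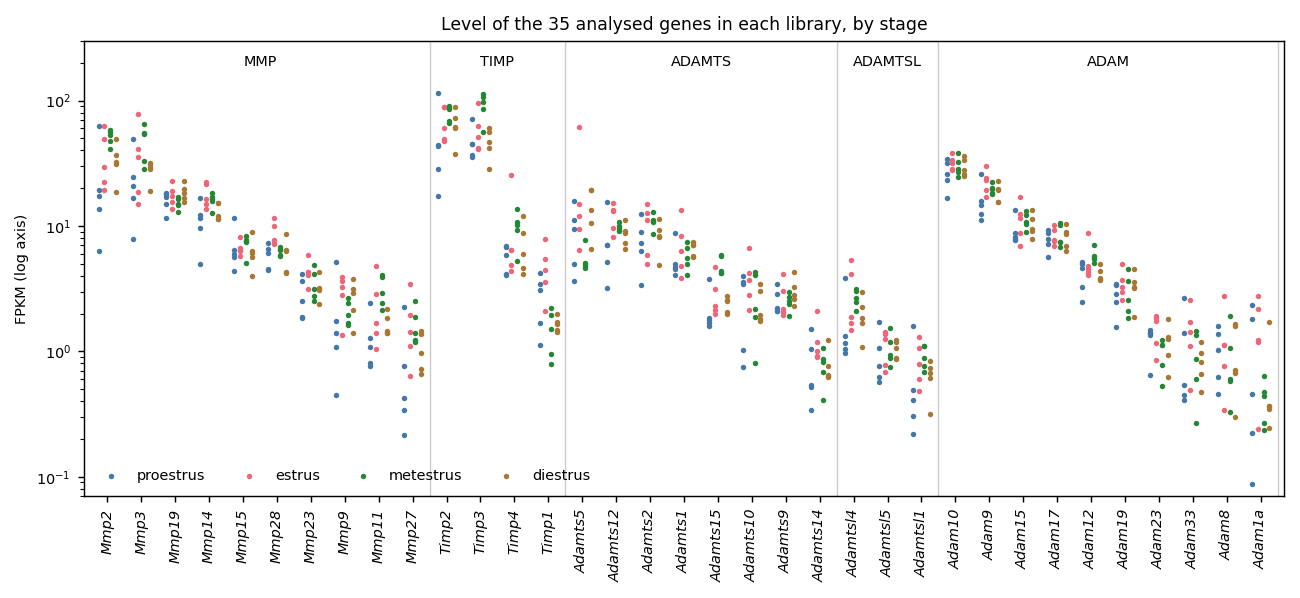
FPKM (log axis) of the 35 analysed genes in each of the 20 libraries, grouped by family and ordered by mean level, with the 5 libraries of a stage in 1 colour. Timp2 and Timp3 have the highest means of all members, at 65.3 and 60.8 FPKM, and the estrus point of Adamts5 far above the others is 61.2 FPKM.

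Which classes were present was uneven. The sheddases among the ADAMs were nearly complete, with 8 of 9 analysed, both gelatinases (Mmp2 and Mmp9) and all 4 TIMPs passed the level, and so did 4 of 7 proteoglycanases (Adamts1, Adamts5, Adamts9 and Adamts15) and 2 of 3 procollagen N-proteinases (Adamts2 and Adamts14). The genes classed here as collagenases were below it, with 0 of 2 analysed: Mmp13 reached at most 0.421 FPKM and Mmp8 at most 0.158 FPKM. Mmp14, classed as membrane-type, was not counted among them. Only 2 of 6 membrane-type MMPs (Mmp14 and Mmp15) and 1 of 17 ADAMs known from the reproductive tract (Adam1a) passed. Of the 8 listed Mmp genes that lie together on chromosome 9 (7272514 to 7699585, GRCm38), Mmp3 and Mmp27 were analysed. Genes without listed FPKM were counted neither in this cluster nor in the classes above. Mmp12, the macrophage metalloelastase in that cluster, was under 1 FPKM in 19 libraries and 4.02 FPKM in estrus-1.

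Across the 4 stages, Adamts15 was the only member called. By an F test over the stages 0.736% of the 13987 genes tested were called, and 1 of 35 members was (Adamts15, adjusted p = 0.0461). At an unadjusted p under 0.05 there were 8 members of 35, or 22.9%, beside 10.7% of all genes. In pairs of stages, 1 member was called higher at metestrus than at proestrus (all genes 0.879%, and 0.593% in this direction), 1 lower at diestrus than at metestrus (1.24%, and 0.836% in this direction), and 0 between estrus and proestrus (0.143%), metestrus and estrus (0.222%), proestrus and diestrus (0.0143%) and diestrus and estrus (0%). At an unadjusted p under 0.05 there were 8 members between estrus and proestrus (all genes 6.69%), 6 between metestrus and estrus (8.13%), 0 between proestrus and diestrus (3.96%) and 2 between diestrus and estrus (6.08%). The same count was 9 between metestrus and proestrus (10.5%), all higher at metestrus (6.31% in this direction), and 5 between diestrus and metestrus (12.1%).

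Adamts15 encodes a secreted protease of the hyalectan-degrading ADAMTS group, which cleaves versican and aggrecan, and lies on chromosome 9 (30899155 to 30922452, GRCm38) beside its relative Adamts8. Its levels were 1.77, 3.78, 1.86, 1.58 and 1.69 FPKM in the proestrus libraries, 4.75, 3.17, 2.32, 2.0 and 2.14 FPKM at estrus, 5.77, 4.25, 4.18, 5.83 and 4.40 FPKM at metestrus and 1.99, 2.54, 2.77, 2.59 and 2.06 FPKM at diestrus. Each metestrus library was above each library of proestrus and of diestrus, and only estrus-1 among the estrus libraries reached into the metestrus range. Means were 2.14 ± 0.927, 2.87 ± 1.14, 4.89 ± 0.838 and 2.39 ± 0.345 FPKM (SD, n = 5 per stage) in the order of the cycle. The gene rose by 0.94 (SE 0.18) at metestrus relative to proestrus (limma, adjusted p = 0.0160), and fell by 0.79 (SE 0.18) at diestrus relative to metestrus (adjusted p = 0.0399). Metestrus was 0.64 above estrus, with an adjusted p of 0.207. Groups that did not overlap, as here, were found for 2.51% of all genes between metestrus and proestrus and for 3.25% between diestrus and metestrus.

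These calls lie close to the threshold. The rise from proestrus is 1.10 (adjusted p = 0.00218) without proestrus-2, whose 3.78 FPKM is the highest proestrus value, and the adjusted p passes 0.05 without proestrus-3 (0.0528), proestrus-4 (0.0571) or metestrus-4 (0.0620). The fall at diestrus loses the call without any 1 of metestrus-1 (0.0799), metestrus-4 (0.131), metestrus-5 (0.0838), diestrus-1 (0.120), diestrus-2 (0.0641), diestrus-4 (0.0734) and diestrus-5 (0.0819), and the F test without 17 of the 20 libraries. The direction was the same in all of these fits, though leaving out a library of another stage cannot alter a difference. With the progenitor and fibroblast score as a covariate, an alternative chosen after the data were seen, the rise was 0.81 (adjusted p = 0.0391) and the fall was -0.78 (adjusted p = 0.0231). With the mammary epithelium score as a covariate, the difference of diestrus from metestrus was -0.65 and not called (adjusted p = 0.106). That score averaged 4.16 ± 0.250 at diestrus and 4.50 ± 0.540 at metestrus, and its part in the fall was not tested further. Adamts8, its neighbour, was listed at 0.174 to 0.400 FPKM.

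**Figure D2:**
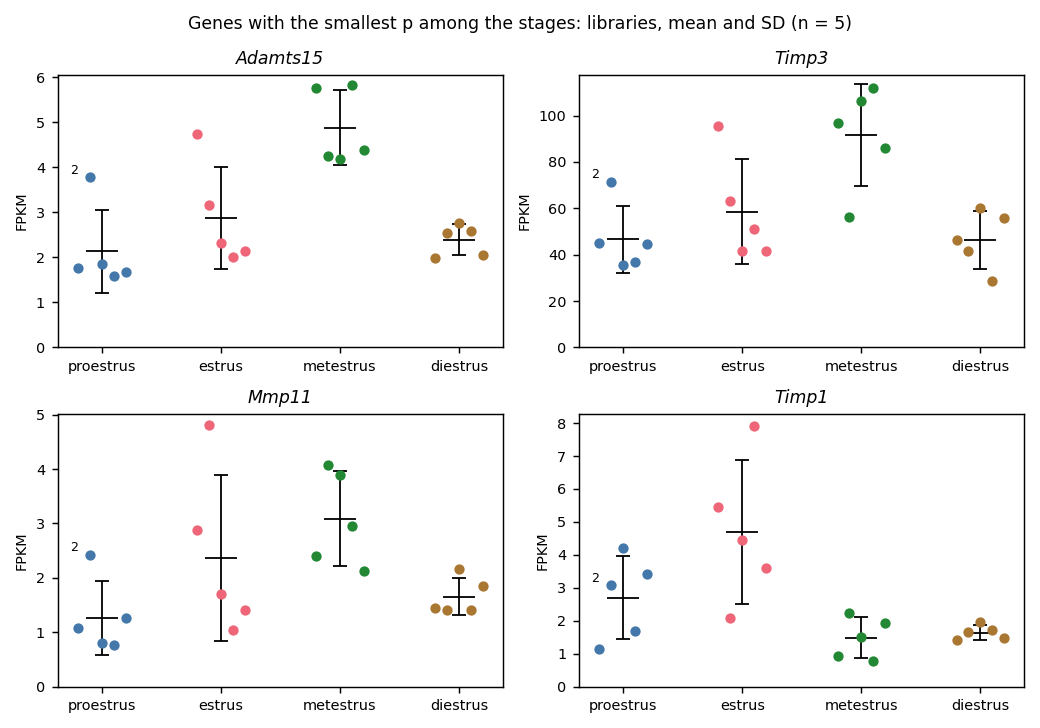
FPKM in each library by stage for the 4 members with the smallest p among the stages (points are libraries, bars the mean and SD, n = 5 mice per stage, and 2 marks proestrus-2). The metestrus libraries of Adamts15 lie between 4.18 and 5.83 FPKM, above all proestrus and diestrus libraries, and the estrus mean of Timp1, 4.70 FPKM, is the highest of its 4 means.

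Among the inhibitors, Timp3 had its highest values at metestrus. TIMP3 stays bound to the matrix and, unlike the other TIMPs, inhibits ADAM17 and several ADAMTS proteases. Timp3 had 45.0, 71.4, 35.4, 36.7 and 44.8 FPKM in the proestrus libraries, 95.6, 63.1, 41.5, 51.2 and 41.6 FPKM at estrus, 96.8, 56.3, 106.4, 111.8 and 86.0 FPKM at metestrus and 46.5, 41.6, 60.1, 28.5 and 55.9 FPKM at diestrus. Metestrus libraries other than metestrus-2 were above all proestrus and diestrus libraries, and estrus-1 was as high. The difference of diestrus from metestrus was -0.97 (SE 0.25, limma, adjusted p = 0.0696) and that of metestrus from proestrus 0.96 (SE 0.25, adjusted p = 0.0883), so neither passed. The second is 1.13 (adjusted p = 0.0265) without proestrus-2. With the lymphocyte score as a covariate both passed, at -0.89 (adjusted p = 0.0172) and 0.83 (adjusted p = 0.0341). Timp3 lies on chromosome 10 (86300372 to 86349506, GRCm38) inside Syn3 on the opposite strand, and Syn3 was listed at 0.0332 to 0.265 FPKM.

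Timp1, a secreted inhibitor induced by inflammation and growth factors, had another order of stages. It had 1.13, 3.08, 4.20, 1.68 and 3.42 FPKM in the proestrus libraries, 5.44, 2.10, 4.44, 7.92 and 3.59 FPKM at estrus, 0.945, 2.24, 1.51, 0.789 and 1.95 FPKM at metestrus and 1.42, 1.65, 1.97, 1.71 and 1.47 FPKM at diestrus. Each diestrus library was below each estrus library (all genes without overlap in this pair, 1.43%), and metestrus overlapped estrus only through estrus-2 and metestrus-2. The difference of metestrus from estrus was -1.15 (SE 0.26, limma, adjusted p = 0.0846) and that of diestrus from estrus -1.03 (adjusted p = 0.480). Leaving out proestrus-1 or estrus-2 brought the first past the threshold, at adjusted p of 0.0478 and 0.0408. Timp1 lies inside Syn1 on the X chromosome, again on the opposite strand, and Syn1 was at 0.0615 to 0.207 FPKM.

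Timp2 and Timp4 spread widely within stages. Timp2, which forms a complex with Mmp14 that activates the Mmp2 precursor, had 17.4, 115.4, 44.4, 28.4 and 43.7 FPKM in the proestrus libraries, 88.2, 89.3, 47.8, 60.6 and 49.8 FPKM at estrus, 85.7, 66.0, 68.5, 91.1 and 87.6 FPKM at metestrus and 60.3, 72.8, 88.8, 37.6 and 61.8 FPKM at diestrus. Proestrus thus held both its lowest and its highest library. Metestrus was 0.94 above proestrus (SE 0.35, limma, adjusted p = 0.272), and 1.31 above it without proestrus-2 (adjusted p = 0.0199). With the progenitor and fibroblast score as a covariate it was 0.51 above. Timp4, a TIMP found in heart and fat, had a mean of 8.01 FPKM and reached 25.7 FPKM in estrus-1, with 4.40 to 6.38 FPKM in the other estrus libraries. It lies inside Syn2 on the opposite strand, which was at 1.55 to 12.6 FPKM. Whether the counting used strand is not given in the sources used here, so reads of Timp4 and Syn2 cannot be told apart with certainty where exons overlap. Only the spans of genes were compared here, and exons were not.

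Mmp2 and Mmp3, made largely by stromal cells, differed most between metestrus and proestrus, but not past the threshold. For Mmp2 the proestrus libraries had 6.36, 62.6, 19.3, 13.7 and 17.3 FPKM, those of estrus 49.4, 62.7, 22.5, 29.5 and 19.3 FPKM, those of metestrus 56.2, 53.6, 41.4, 57.8 and 47.8 FPKM and those of diestrus 36.7, 31.1, 49.6, 18.5 and 32.3 FPKM. Metestrus libraries were above all proestrus libraries but proestrus-2. The difference was 1.44 (SE 0.42, limma, adjusted p = 0.130), and 1.88 (adjusted p = 0.00822) without proestrus-2. With the progenitor and fibroblast score as a covariate it was 0.93 (adjusted p = 0.194). Mmp3 had 7.86, 49.4, 24.8, 16.7 and 20.8 FPKM at proestrus, 40.9, 77.6, 15.04, 35.6 and 18.7 FPKM at estrus, 33.0, 64.6, 28.4, 54.7 and 54.0 FPKM at metestrus and 31.5, 28.5, 31.1, 19.0 and 29.6 FPKM at diestrus. Its metestrus values were 1.10 above those of proestrus (SE 0.42, adjusted p = 0.281), with proestrus-2 again inside the metestrus range. That difference was 1.41 (adjusted p = 0.0709) without proestrus-2 and 0.63 with the covariate.

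Mmp11, a stromal enzyme first known from breast tumours, was at low levels. It had 1.08, 2.42, 0.806, 0.769 and 1.27 FPKM at proestrus, 2.87, 4.80, 1.70, 1.05 and 1.41 FPKM at estrus, 2.41, 4.07, 3.90, 2.94 and 2.12 FPKM at metestrus and 1.46, 1.41, 2.16, 1.41 and 1.85 FPKM at diestrus. Metestrus was 0.87 above proestrus (SE 0.24, limma, adjusted p = 0.109), and 1.03 above it without proestrus-2 (adjusted p = 0.0303). The annotated gene overlaps Chchd10 on the opposite strand over 3367 bases. Chchd10 was at 9.10 to 71.9 FPKM, and reads in the shared stretch cannot be told apart if strand was not used. Whether exons of both genes lie in that stretch was not checked.

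Mmp14 and Mmp28 had their highest means at estrus. Mmp14 averaged 10.997 ± 4.22, 17.8 ± 4.02, 15.98 ± 2.08 and 13.1 ± 2.05 FPKM in the order of the cycle (SD, n = 5 per stage). Estrus was 0.71 above proestrus (SE 0.21, limma, adjusted p = 0.522). The difference was 0.87 (adjusted p = 0.0743) without proestrus-2 and 0.38 with the progenitor and fibroblast score as a covariate. Mmp28, or epilysin, had 4.47, 6.51, 6.10, 7.37 and 4.52 FPKM at proestrus, 11.6, 7.52, 7.16, 10.02 and 7.68 FPKM at estrus, 6.46, 5.80, 6.60, 5.90 and 6.75 FPKM at metestrus and 6.36, 8.60, 4.23, 4.30 and 6.45 FPKM at diestrus. The metestrus libraries were all below the estrus libraries (all genes without overlap in this pair, 1.67%), with a difference of -0.41 (SE 0.17, adjusted p = 0.487). Mmp9, the gelatinase of leukocytes, averaged 1.97 ± 1.86, 2.99 ± 1.002, 2.07 ± 0.464 and 2.66 ± 0.920 FPKM. Mmp15 was at 4.02 to 11.6 FPKM and Mmp19 at 11.5 to 22.7 FPKM.

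Among the ADAMTS genes Adamts5 varied most, with an SD of log2(FPKM + 1) of 0.89 over the libraries. It had 3.65, 15.95, 9.40, 11.2 and 4.93 FPKM at proestrus, 61.2, 14.9, 6.41, 12.1 and 9.47 FPKM at estrus, 4.84, 5.11, 7.67, 4.997 and 4.598 FPKM at metestrus and 19.2, 19.5, 6.54, 10.6 and 13.5 FPKM at diestrus. The metestrus libraries were low and close together, yet metestrus-3 lay above diestrus-3. Diestrus was 1.13 above metestrus (SE 0.46, limma, adjusted p = 0.286), and metestrus was 1.32 on the log2 scale under estrus, which was not called (adjusted p = 0.337). Without estrus-1 the difference of metestrus from estrus was -0.83. Adamts1, its neighbour on chromosome 16 and a protease induced at ovulation, had means of 5.44 ± 1.91, 7.37 ± 3.82, 5.75 ± 1.34 and 6.60 ± 0.837 FPKM. Adamts2, which trims fibrillar procollagens, averaged 7.65 ± 3.35, 9.95 ± 4.35, 10.9 ± 1.49 and 8.41 ± 2.37 FPKM. Adamts9 stayed between 1.93 and 4.28 FPKM. Adamts4 was below the level analysed, with 2.40 FPKM in estrus-4 and 1.21 FPKM in diestrus-2 as its highest values.

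Among the sheddases, Adam17 differed little between the stages, while single libraries ran from 16.8 to 37.9 FPKM for Adam10 and from 11.1 to 30.0 FPKM for Adam9. Adam17, which releases tumour necrosis factor and ligands of the EGF receptor, averaged 7.74 ± 1.40, 8.37 ± 1.36, 8.50 ± 1.74 and 8.22 ± 1.62 FPKM over the stages of the cycle, and its largest change in any of the 6 pairs was 0.12 (metestrus minus proestrus, SE 0.15). Stage accounted for 4.21% of the variance of its log2 values and for 64.7% of that of Adamts15. Adam10 averaged 26.4 ± 6.88, 32.0 ± 4.05, 30.0 ± 5.24 and 29.7 ± 4.84 FPKM. For Adam12, found in fat progenitors and growing muscle, the diestrus libraries (3.71 to 5.01 FPKM) lay just below the metestrus libraries (5.04 to 7.10 FPKM). Groups without overlap were found for 3.25% of all genes in this pair. The difference was -0.41 (SE 0.17, limma, adjusted p = 0.331). Adam8, a leukocyte ADAM, was at 0.299 to 2.77 FPKM. The span of Adam1a overlaps that of Mapkapk5 on the same strand over 20445 bases. It also holds the protein-coding Gm42878 on the same strand, over 26870 bases and at 0 to 1.72 FPKM. Shared exons were not checked, so the 0.0876 to 2.78 FPKM of Adam1a remain uncertain.

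Between estrus and proestrus, each of the 35 members had a change above 0, with a median of 0.33, while 60.8% of all genes did and their median was 0.05. None was called, and 8 had an unadjusted p under 0.05, all higher at estrus (Mmp14, Mmp28, Adam9, Adamts12, Mmp23, Timp1, Mmp27 and Mmp11), or 22.9% beside 4.63% of all genes. After scaling by median-ratio size factors 33 of 35 were above 0, beside 48.6% of all genes. The family medians were 0.55 for the MMPs, 0.51 for the TIMPs, 0.33 for the ADAMTS, 0.25 for the ADAMTS-like and 0.27 for the ADAM genes. Members of a family share tissue sources and libraries, so these counts describe the list and are not 35 independent results. Between metestrus and proestrus 27 of 35 were above 0 (all genes 47.7%), with a median of 0.22, and between diestrus and estrus 2 of 35 (all genes 35%), with a median of -0.19. Under median-ratio size factors the last count was 7 of 35, beside 51% of all genes. In none of the 35 was proestrus the stage with the highest mean, while 20.5% of all genes had theirs there, and in 23 it was the lowest, beside 23.5% of all genes. These comparisons share their proestrus or estrus libraries.

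**Figure D3:**
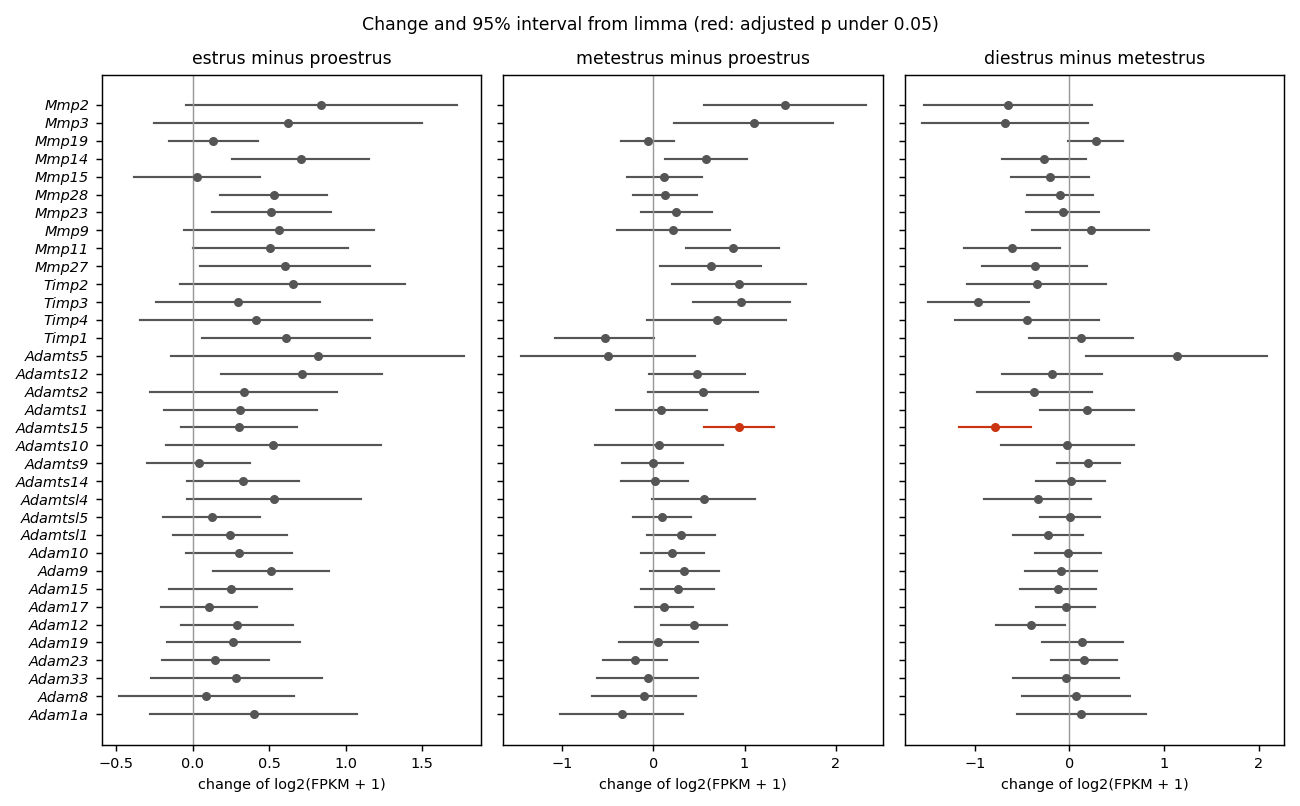
Change of log2(FPKM + 1) with its 95% interval from limma for the 35 members in 3 pairs of stages, ordered by family and mean level. Each change in the estrus minus proestrus panel is above 0, and Adamts15, in red, is the only member past the threshold, at 0.94 in metestrus minus proestrus and -0.79 in diestrus minus metestrus.

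Proestrus-2 weighed on these differences. It was the highest of the 5 proestrus libraries for 27 of 35 members (all genes 34.3%). Without it, 5 members were called higher at metestrus than at proestrus (all genes 2.34%): Adamts15, Mmp2, Timp2, Timp3 and Mmp11. Adamts12, which degrades cartilage oligomeric matrix protein, was then called higher at estrus than at proestrus, by 0.98 (adjusted p = 0.0439, all genes 0.329%). With proestrus-2 it had a difference of 0.71 (adjusted p = 0.684). The median of the 35 changes between estrus and proestrus was 0.51 without that library, with all 35 above 0, and the family medians were 0.75 (MMP), 0.56 (TIMP), 0.49 (ADAMTS), 0.43 (ADAMTS-like) and 0.37 (ADAM). Between metestrus and proestrus 29 of 35 were then above 0, with a median of 0.37. With the progenitor and fibroblast score as a covariate, the median between estrus and proestrus was 0.17, with 31 of 35 above 0 (all genes 47.8%), and that between metestrus and proestrus 0.12, with 23 of 35 above 0 (all genes 38%).

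The MMP and TIMP sums were both highest at metestrus by their means. The MMP sum was 94.2 ± 50.6, 136.6 ± 51.8, 153.2 ± 22.7 and 114.1 ± 19.4 FPKM, and the TIMP sum 104.8 ± 51.9, 140.0 ± 49.0, 182.5 ± 31.6 and 119.5 ± 30.3 FPKM, at proestrus, estrus, metestrus and diestrus (SD, n = 5 per stage). A few genes make up most of these sums. At metestrus Timp2 and Timp3 averaged 79.8 and 91.5 FPKM, and Mmp2 and Mmp3 51.4 and 46.9 FPKM, while Timp1 had its lowest mean there, at 1.49 FPKM. Proestrus-2, not left out here, had an MMP sum of 179.2 FPKM (other proestrus libraries 44.8 to 91.6) and a TIMP sum of 195.7 FPKM (70.4 to 96.1). The ratio of the TIMP sum to the MMP sum averaged 1.16 ± 0.248, 1.06 ± 0.227, 1.22 ± 0.311 and 1.04 ± 0.130, with single libraries between 0.745 and 1.60. The 4 stages overlapped in this ratio, which was not tested. A ratio of transcripts is not a balance of active enzyme and inhibitor.

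Levels of members were then set against scores of 9 cell types, each the mean log2(FPKM + 1) of its tested markers, in fits that kept the stages in the model. The slopes compare libraries within a stage. Progenitor and fibroblast markers had 6 of 35 members with a positive slope past the threshold (all genes 2.46%): Mmp23, Mmp2, Timp2, Adamts12, Mmp14 and Mmp3. Their slopes were 0.67 (Mmp23) to 1.39 (Mmp2) per unit of score. Macrophage markers had 8 (2.07%), with Timp2, Adamts12 and Mmp14 at the smallest p and Mmp9 among them. Mural and smooth muscle markers had 15 (8.97%), led by Adamts1, Adamts2 and Adam9, with 0 negative (6.68%), and Adamts15 was among them with a slope of 0.77 (SE 0.25, limma, adjusted p = 0.0441). Endothelial markers had 7 (7.23%), led by Adam15 and Timp4, with 0 negative (18.9%).

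Lymphocyte markers went the other way. Here 13 members had a negative slope (all genes 9.14%), led by Adam15 at -0.15 (SE 0.02), Adam9, Adamts1 and Timp3, and 1 member, Adam8, a positive one at 0.16 (all genes 19.1%). Adipocyte markers had positive slopes of Adam15 and Mmp28 (2 members, all genes 8.25%) and negative slopes of Adam8, Adam19, Adam17, Adam23 and Adamts10 (5 members, all genes 30.4%). No member had a slope past the threshold on skeletal muscle, mammary epithelium or neutrophil markers, where 0.3%, 0.651% and 0.286% of all genes had a positive and 0.00715%, 0.05% and 0% a negative one.

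Single libraries carry part of these slopes. Without proestrus-2 the progenitor score had 1 member past the threshold, the mural score 3 and the macrophage score 4. Without proestrus-1, the library with the lowest progenitor score, they were 2 for the progenitor and 3 for the macrophage score. Without estrus-3 there were 4 for the adipocyte and 9 for the lymphocyte score. Without the 2 libraries farthest from the median score, Mmp23 alone remained on the progenitor score, and 0 members on the macrophage score. Adamts15 was then not among the 9 members called on the mural score. On the lymphocyte score 8 negative and 3 positive slopes were called in that fit, and on the endothelial score 4 positive slopes and a negative one, of Adam8 at -1.96 (adjusted p = 0.0204). Shares over all genes are not given for these refits, so their counts describe the fits and not the members.

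**Figure D4:**
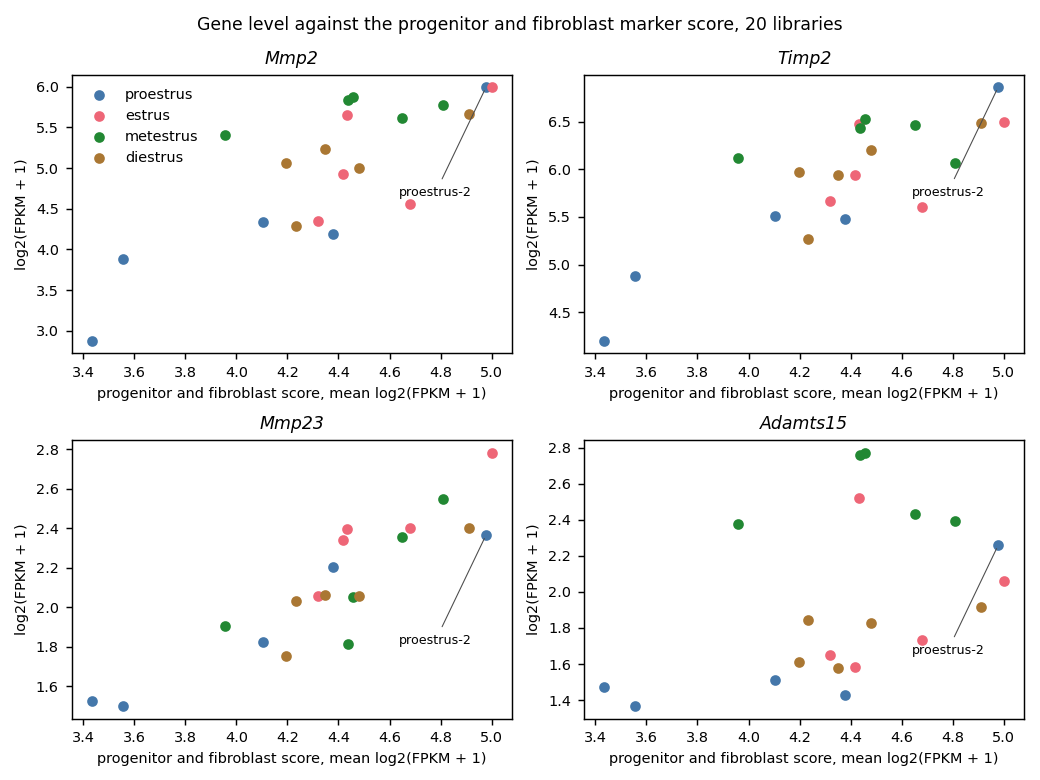
Log2(FPKM + 1) of Mmp2, Timp2, Mmp23 and Adamts15 against the mean log2(FPKM + 1) of the progenitor and fibroblast markers in 20 libraries, coloured by stage. The lowest 2 scores, 3.43 and 3.56, are proestrus libraries with low Mmp2, and the metestrus libraries of Adamts15 lie above those of the other stages at like scores, apart from estrus-1.

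**Figure D5:**
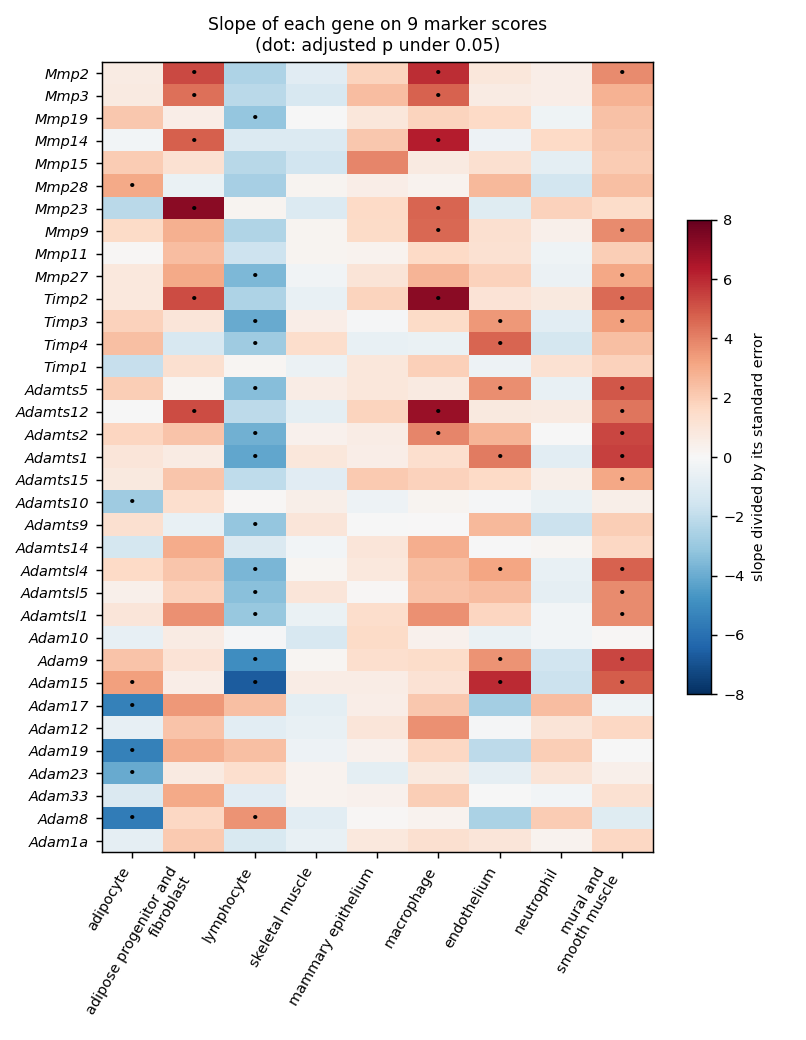
Slope of each of the 35 members on the score of each of 9 cell types with the stages in the model, divided by its standard error (colour), with a dot where the adjusted p is under 0.05. Dots are most frequent in the mural and smooth muscle column (15) and the lymphocyte column (14, of which 13 are negative), and there are 0 in the skeletal muscle, mammary epithelium and neutrophil columns.

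By stage, the progenitor and fibroblast score averaged 4.09 ± 0.630, 4.57 ± 0.275, 4.46 ± 0.320 and 4.43 ± 0.289, the macrophage score 3.64 ± 0.780, 4.26 ± 0.255, 4.40 ± 0.233 and 4.07 ± 0.505 and the mural score 3.67 ± 0.351, 3.94 ± 0.259, 3.95 ± 0.171 and 3.77 ± 0.081 over the cycle (SD, n = 5 per stage). The summed progenitor markers were 223.1 to 749.0 FPKM at proestrus, 412.5 to 892.0 at estrus, 407.1 to 704.5 at metestrus and 436.9 to 647.5 at diestrus. None of the 12 progenitor and fibroblast, 12 macrophage or 12 mural markers was at 0 in any library. Of the lymphocyte markers 1 was at 0 somewhere, and of the neutrophil markers 6. Between estrus and proestrus 3 of 11 progenitor and 5 of 12 macrophage markers tested had an unadjusted p under 0.05, all higher at estrus (all genes 4.63%), and 0 were called. The progenitor, macrophage and mural scores all had their lowest mean at proestrus. The differences from proestrus of Mmp2, Mmp3, Timp2 and Mmp14 were smaller with the progenitor and fibroblast score as a covariate, as given above. These genes also had positive slopes on that score, so a smaller difference follows from the fit itself. The part of progenitor, macrophage and mural cells in the differences was not tested.

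Genes that act with these enzymes gave few calls. Of 12 genes of the plasminogen system, a serine protease cascade that can activate MMP precursors, 9 were tested and 0 called in any pair. Of 18 other regulators of metalloproteases tested 1 was called: Thbs2, a matrix protein that promotes the uptake of Mmp2 by cells, rose by 1.36 (SE 0.31, adjusted p = 0.0457) at metestrus relative to proestrus, with means of 27.3 and 10.6 FPKM. Of 18 shed ligands and receptors tested 1 was called: Il6ra, the interleukin-6 receptor chain that ADAM10 and ADAM17 cleave, fell by 1.06 (SE 0.23, adjusted p = 0.0286) at diestrus relative to metestrus, with means of 4.91 and 11.2 FPKM. Over all genes 0.593% were called higher in the pair of Thbs2 and 0.836% lower in that of Il6ra. Thbs2 had 1.58 (adjusted p = 0.0117) without proestrus-2, and 1.11 (adjusted p = 0.117, not called) with the progenitor and fibroblast score as a covariate.

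The substrates and other proteases held 0 calls. Of 18 matrix substrates tested, among them the collagen gene Col3a1 and the proteoglycans Lum and Dcn, 8 had an unadjusted p under 0.05 between estrus and proestrus, all higher at estrus (all genes 4.63%), with a median change of 0.67 (all genes 0.05). Lum, Dcn and Fbn1 are also in the progenitor and fibroblast list. Of 11 other matrix proteases tested, 4 had an unadjusted p under 0.05 between metestrus and proestrus, all higher at metestrus (all genes 6.31%). Ctsk, the collagen-degrading cathepsin K, averaged 54.8 ± 12.7 FPKM at metestrus and 23.97 ± 11.6 FPKM at proestrus, a difference of 1.27 (SE 0.35, limma, adjusted p = 0.106), and of 1.49 (adjusted p = 0.0311) without proestrus-2.

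The start regions of 4 members are shown, as those of the members with the smallest p among the stages for which one was at hand (Timp1, Timp3 and Mmp11) and of Mmp3, a textbook target of the AP-1 transcription factor. Each runs from 250 bases before to 50 after the start in RefSeq (GRCm38.p6) and is written 5′ to 3′ on the gene's strand. Capitals mark TGANTCA (the AP-1 site), AGAACA (the half-site of the glucocorticoid and progesterone receptors) and TATAAA (the TATA box) where a search of both strands found them. No 2 of the motifs overlap here.
Timp3, chr10:86300162-86300461, + strand: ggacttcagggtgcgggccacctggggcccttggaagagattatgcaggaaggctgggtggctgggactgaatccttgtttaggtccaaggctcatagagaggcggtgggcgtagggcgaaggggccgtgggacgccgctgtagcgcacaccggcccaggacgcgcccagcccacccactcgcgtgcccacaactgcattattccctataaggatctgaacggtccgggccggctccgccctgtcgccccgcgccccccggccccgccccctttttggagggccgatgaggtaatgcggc
Timp1, chrX:20869916-20870215, + strand: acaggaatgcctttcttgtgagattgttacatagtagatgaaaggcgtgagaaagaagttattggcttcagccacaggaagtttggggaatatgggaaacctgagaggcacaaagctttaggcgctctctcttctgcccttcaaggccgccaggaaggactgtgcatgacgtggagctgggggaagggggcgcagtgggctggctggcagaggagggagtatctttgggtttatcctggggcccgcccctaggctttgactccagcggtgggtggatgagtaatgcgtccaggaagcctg
Mmp11, chr10:75932453-75932752, - strand: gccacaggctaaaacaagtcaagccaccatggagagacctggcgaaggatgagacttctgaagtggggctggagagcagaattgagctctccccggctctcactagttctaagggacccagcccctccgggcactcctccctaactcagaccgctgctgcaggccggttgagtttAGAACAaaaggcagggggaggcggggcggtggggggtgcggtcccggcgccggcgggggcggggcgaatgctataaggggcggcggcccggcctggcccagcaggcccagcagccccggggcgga
Mmp3, chr9:7445572-7445871, + strand: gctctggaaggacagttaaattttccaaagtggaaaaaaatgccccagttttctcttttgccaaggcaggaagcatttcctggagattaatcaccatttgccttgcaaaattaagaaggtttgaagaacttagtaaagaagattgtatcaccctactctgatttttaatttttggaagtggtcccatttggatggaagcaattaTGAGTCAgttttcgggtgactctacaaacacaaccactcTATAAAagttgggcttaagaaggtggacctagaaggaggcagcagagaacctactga

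Such windows were at hand for 25 of the 35 members, in 28 start regions. TGANTCA was in 2 of the 28 (7.14%; 7.81% of 32851 start regions of all genes), in Adam19 and in Mmp3 at 46 bases before the start. AGAACA was in 4 of the 28 (14.3%; all genes 19.0%), with Mmp11 at 75 bases before the start as the one among those shown. TATAAA was in 2 of the 28 (7.14%; all genes 13.6%), in Adamts1 and Mmp3. The shares in members were no higher than in all genes, and a match of letters is not a bound site.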

How the data were processed

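RNA of inguinal fat was sequenced as 1 library from each of 20 mice. The authors deposited 1 table of FPKM, with a column for each mouse. In the study's methods the reads were trimmed, mapped to GRCm38 and counted by HTSeq. The notes of the submitters list StringTie 1.3.1c beside STAR 2.5.3a and FastQC 0.11.5, and hg38 beside GRCm38. It is therefore uncertain which tool gave the FPKM, and neither the annotation release nor the use of strand was stated in the labels or methods. No count test was run on FPKM. The study lists read totals for each library, but the FPKM hold no fragment counts per gene, so no counting interval is given.

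A pseudocount of 1 was added before the log2 step, and 13987 genes that reached 1 FPKM in 5 or more libraries entered limma 3.58.1 (R 4.3.3), with a mean for each stage and a variance trend. P-values were adjusted by Benjamini-Hochberg over all of these genes, with a threshold of 0.05, for 6 pairs of stages and an F test. The fit was checked on simulated data with independent normal noise for each gene. Those data hold no shared differences in tissue content, so the check bears on the working of the fit and not on the calls above. Slopes on 9 marker scores kept the stages in the model. Alternatives were a pseudocount of 0.1, no filter or a stricter one (10 libraries), 3 scalings, array weights, no trend, a replicate block, marker scores as covariates, the 10 libraries of a pair alone, and libraries left out. The progenitor covariate, the slopes with 1 library left out and the rescaled sums were chosen after the data were seen.

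Named genes were the called members, the 8 with the smallest p of the F test, the 5 with the highest mean, the 4 with the largest SD and a fixed set of family members, and from other lists up to 3 genes with the smallest p in a pair. Other members are given by role, with a mean or range. The members and lists were chosen with earlier results of these data known. Positions are from GENCODE M21 (1-based), which held all 78 genes. P-values measure the spread between these mice, and no 2 libraries were identical. A result on 1 gene of the other lists is not reported here.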

Additional observations from a re-analysis of the deposited data

Results flagged for a closer look

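In 19 of 124 groups of 5 libraries the highest or lowest library lay apart from the other 4, with a gap over 0.71 of the range of the group. That limit gives about 1 in 20 such groups only for normally distributed values, and raw FPKM were used here for the genes. Of the 19, 15 were high values. Some genes were named for their large SD over these libraries, so the 19 cannot be set against 1 in 20. Members of 1 library are not independent. Proestrus-2 was high for Adamts15 (3.78 FPKM, against 1.58 to 1.86 in the other 4 proestrus libraries), Timp3 (71.4, against 35.4 to 45.0), Mmp2 (62.6, against 6.36 to 19.3), Timp2 (115.4, against 17.4 to 44.4), Mmp9 (5.19, against 0.451 to 1.74), Mmp15 (11.6, against 4.38 to 6.47) and Adamts1 (8.81, against 4.09 to 5.02). Its lymphocyte score also lay apart, at 0.301, against 3.47 to 4.48.

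Estrus-1 lay above the other estrus libraries for Adamts5 (61.2 FPKM, against 6.41 to 14.9), Timp4 (25.7, against 4.40 to 6.38) and Mmp12 (4.02, against 0.260 to 0.615). Estrus-4 did so for Adam12 (8.76 FPKM, against 4.10 to 4.79) and Adamts4 (2.40, against 0.359 to 0.566), and the adipocyte score of estrus-3 was low at 7.85, against 8.40 to 8.58. Metestrus-3 was high for Adamts5 (7.67 FPKM, against 4.598 to 5.11), low for Mmp15 (5.04, against 7.49 to 8.30) and had a skeletal muscle score of 9.64, against 0.612 to 3.13. At diestrus, Mmp3 was low in diestrus-4 (18.99 FPKM, against 28.5 to 31.5) and Mmp12 high in diestrus-5 (0.657, against 0.294 to 0.375).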

How the results depend on the processing

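Of the 8 members with the smallest p of the F test, 20 changes were at an unadjusted p under 0.05. They kept their direction under every alternative run. These changes were picked for small p in the same data, and many alternatives could not alter them. Another filter, no variance trend, the replicate block, the 2 stages alone or a left-out library of another stage return the same value. Among the small changes, Adamts9 (0.04) and Mmp15 (0.03) between estrus and proestrus turned under median-ratio size factors (-0.0080 and -0.03), and 31 of 35 members, rather than 35, were above 0 with the progenitor covariate. The F test called 0 members, against 1, with a pseudocount of 0.1, without a filter, under each of the 3 scalings (same total, same total without mitochondrial genes, median-ratio size factors) and with a replicate block. Between diestrus and metestrus 0 members were called, against 1, without a filter, under the same 3 scalings, with the replicate block and with the mammary epithelium score as a covariate. Adamts15 kept its call between metestrus and proestrus in 30 of 34 alternatives (0.81 to 1.22, adjusted p 0.000990 to 0.0620) and between diestrus and metestrus in 21 of 34 (-0.998 to -0.65, adjusted p 0.00131 to 0.131). With only the 10 libraries of both stages, 0 members were called between metestrus and proestrus (Adamts15, adjusted p = 0.0525). Array weights gave 2 members between metestrus and estrus, 3 between diestrus and metestrus, 4 between metestrus and proestrus and 5 in the F test. The lymphocyte covariate gave 2 between diestrus and metestrus, 2 between metestrus and proestrus and 2 in the F test. Without proestrus-2 and metestrus-3 there was 1 between estrus and proestrus, 3 between metestrus and proestrus and 2 in the F test. The share of all genes called under each of these alternatives is not given, so these counts are no result about the members.

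Leaving out 1 library gave 0 to 1 members between estrus and proestrus, 0 to 1 between metestrus and estrus, 0 to 2 between diestrus and metestrus, 0 to 5 between metestrus and proestrus and 0 to 2 in the F test. For the marker slopes it gave 4 to 9 members for adipocyte, 1 to 8 for progenitor, 9 to 17 for lymphocyte, 5 to 10 for endothelium, 3 to 9 for macrophage and 3 to 17 for mural markers. Without the 2 libraries farthest from the median score, the members were 4 for adipocyte, 1 for progenitor, 0 for macrophage, 9 for mural, 11 for lymphocyte and 5 for endothelium markers. Shares over all genes are not given for the fits with libraries left out, so their counts describe the fits and not the members. The cause of these changes was not tested. Without a filter more genes were adjusted over, and the variance trend was also fitted on more genes. Replicate numbers did not pair the libraries: over 30 pairs of libraries with the same number the correlation of deviations from the stage means was -0.61 to 0.67, and 2 of 20 libraries correlated best with their own number. With the replicate block Adamts15 had an adjusted p of 0.0294 between metestrus and proestrus, 0.0673 between diestrus and metestrus and 0.0911 in the F test. The table holds no fragment counts per gene, and no limit was set for members near 0 FPKM.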
